A study of Mus musculus with 64 samples.

Results

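Squamous keratinization is the program by which stratified epithelia such as the epidermis turn living cells into a tough surface layer, and 36 of its genes were followed here across 8 mouse mammary tumors. The members were found by gene name, and each of the 36 names matched 1 of the 55385 genes in the tables. In the program, suprabasal keratins replace the basal pair, desmosomal cadherins tie the cells together, and precursor proteins are cross-linked under the plasma membrane by transglutaminases into the cornified envelope, while secreted proteins and kallikrein proteases act outside the cell. The normal mammary gland is a bilayer of luminal and myoepithelial cells and does not cornify.

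The tumors came from 4 female mice that all carried the polyoma middle T transgene (PyMT), which is driven by the MMTV promoter and gives mammary tumors, on a mixed strain Cre, C57BL6 PyMT and floxed background. Abi1, a scaffold of the actin-regulating WAVE complex, was floxed on 1 or both alleles, and MMTV-Cre line D, where present, removed the floxed allele in cells in which MMTV is active. The mice were G144 (fl/wt Cre-, tumors 6 and 8), G164 (fl/wt Cre+, tumors 3 and 6), G184 (fl/fl Cre-, tumors 6 and 9) and G174 (fl/fl Cre+, tumors 1 and 6). The design asked how loss of 1 or of 2 Abi1 alleles changed the tumor transcriptome, with 1 mouse per genotype, so that genotype and mouse cannot be told apart and every p-value measures only the spread between the 2 tumors of a mouse. By the study's own records G164 and G184 were older than G144 and G174. Counts assigned to genes ranged from 50346075 to 69264893 per tumor, and levels are given as CPM, counts per 1000000 counts of the scaled library. Abi1 was at 111 and 130 CPM in G144, 63.1 and 66.7 in G164, 114 and 122 in G184, and 8.93 and 6.47 in G174, a log2 change of -0.89 ± 0.16 between the fl/wt mice and of -3.94 ± 0.18 between the fl/fl mice.

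Both tumors of G164 carried the program, tumor 9 of G184 carried part of it, and the other 5 tumors held little of it. Of the 36 members, 28 were at 2 or more times their own median over the 8 tumors (with more than 3 counts) in G164 tumor 6 and 22 in G164 tumor 3. The same count was 12 in G184 tumor 9, 3 in G144 tumor 8, 2 in G174 tumor 6, 1 in G184 tumor 6, 1 in G174 tumor 1 and 0 in G144 tumor 6. This count was not taken over all genes. Of the 31 members that passed the filter on low counts, 18 had their highest level in G164 tumor 6, a tumor that held the highest level of 8.69% of all 22187 genes tested, and 7 in G164 tumor 3, which held that of 9.30%. G184 tumor 9 held the highest level of 3 of the 31, a smaller share than its 18.3% of all genes. Both G164 tumors lay above all 6 other tumors for 17 of the 31, beside 5.26% of all genes tested. The members that passed did so in part through G164: 8 of them (Krt6b, Ivl, Sprr2d, Csta1, Cnfn, Tgm3, Krtdap and Serpinb2) reached the filter's level in fewer than 2 tumors of the other mice, and 3 of these (Ivl, Sprr2d and Csta1) in none. Such members had to differ, so the counts over the 31 are a description. Among the other 23, both G164 tumors lay above the rest for 10. The 5 that did not pass were Krt2, Krt13, Sprr1b, Sprr2h and Sprr3. In whole-tumor RNA, fewer cells of a type and less RNA per cell cannot be told apart.

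**Figure D1:**
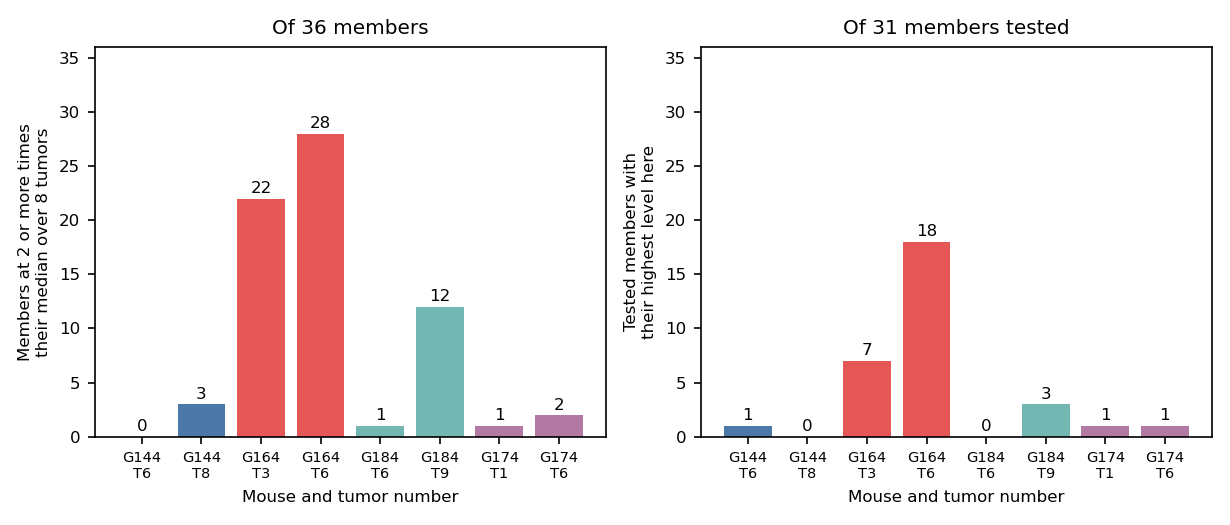
Bars give, for each of the 8 tumors, the number of the 36 members at 2 or more times their median over the tumors (left) and the number of the 31 tested members whose highest level was in that tumor (right), colored by mouse. The 2 tumors of G164 stand at 22 and 28 on the left, G184 tumor 9 at 12, and the other 5 tumors at 3 or fewer.

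**Figure D2:**
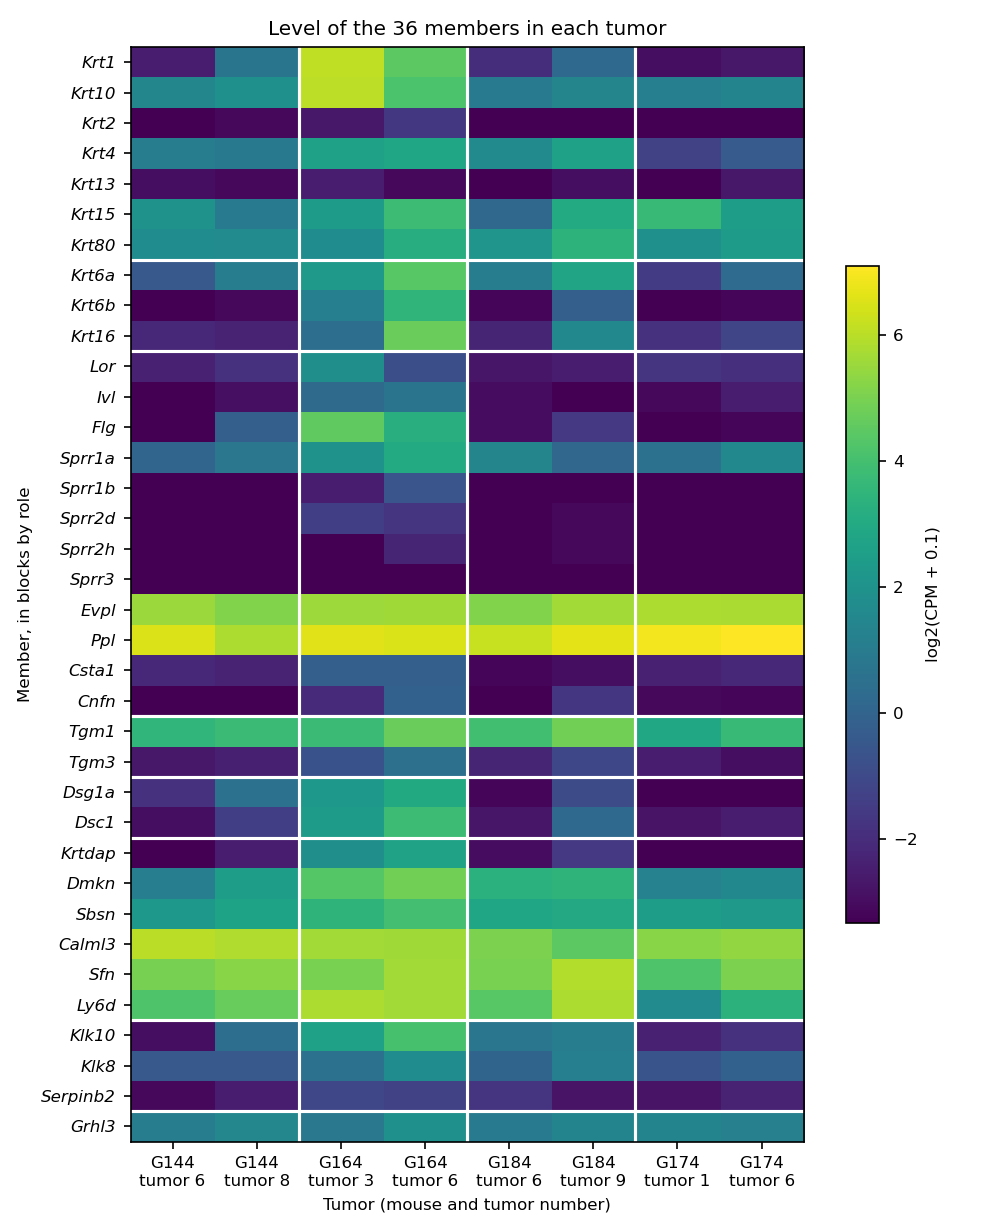
Each row is a member, in blocks by role from keratins (top) to the transcription factor Grhl3 (bottom), each column a tumor, and color the level as log2(CPM + 0.1). Most rows are brightest in the 2 columns of G164, while Evpl, Ppl, Calml3 and Sfn are bright in every tumor.

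In all, 6 members were higher in G164 than in G144 by the test across all genes, and the promoters of the 5 of these that held a searched motif are shown because these are the genes which that comparison called. RefSeq promoter windows, 250 bases before to 50 after the transcription start in GRCm38.p6, were found for 23 members (28 windows). The letters searched on both strands were TGACTCA for the AP-1 site, AACCGGTT for the grainyhead site and TATAAA for the TATA box, each also as its reverse complement. Capitals mark the matches in these windows, all written 5′ to 3′ on the gene's own strand: Ivl at chr3:92573686-92573985 (minus strand), Krt10 at chr11:99389315-99389614 (minus), Krtdap at chr7:30787655-30787954 (plus), the first of 3 windows of Dmkn at chr7:30763506-30763805 (plus) and Sbsn at chr7:30751221-30751520 (plus).
Ivl: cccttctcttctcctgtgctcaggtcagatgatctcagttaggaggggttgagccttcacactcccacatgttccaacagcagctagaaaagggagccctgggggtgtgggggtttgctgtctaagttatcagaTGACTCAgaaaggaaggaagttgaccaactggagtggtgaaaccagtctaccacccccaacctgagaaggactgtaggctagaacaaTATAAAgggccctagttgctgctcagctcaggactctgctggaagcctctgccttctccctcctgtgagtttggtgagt
Krt10: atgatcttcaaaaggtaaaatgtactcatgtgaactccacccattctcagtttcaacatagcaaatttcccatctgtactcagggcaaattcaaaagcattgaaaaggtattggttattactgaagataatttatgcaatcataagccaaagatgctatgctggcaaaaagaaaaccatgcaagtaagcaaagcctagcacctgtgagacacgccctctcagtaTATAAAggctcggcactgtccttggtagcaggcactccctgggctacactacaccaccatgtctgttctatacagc
Krtdap: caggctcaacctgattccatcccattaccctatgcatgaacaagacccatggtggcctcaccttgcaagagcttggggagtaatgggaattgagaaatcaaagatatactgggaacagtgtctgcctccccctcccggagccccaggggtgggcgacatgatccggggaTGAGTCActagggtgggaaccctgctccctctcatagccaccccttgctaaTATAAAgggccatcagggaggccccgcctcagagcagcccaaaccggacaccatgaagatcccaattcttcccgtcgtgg
Dmkn: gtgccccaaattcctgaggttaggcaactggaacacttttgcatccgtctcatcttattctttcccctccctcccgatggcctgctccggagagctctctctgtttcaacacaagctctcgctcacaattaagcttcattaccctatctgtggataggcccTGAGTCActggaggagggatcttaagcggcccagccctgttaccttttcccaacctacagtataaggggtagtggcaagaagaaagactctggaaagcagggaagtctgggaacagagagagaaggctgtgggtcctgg
Sbsn: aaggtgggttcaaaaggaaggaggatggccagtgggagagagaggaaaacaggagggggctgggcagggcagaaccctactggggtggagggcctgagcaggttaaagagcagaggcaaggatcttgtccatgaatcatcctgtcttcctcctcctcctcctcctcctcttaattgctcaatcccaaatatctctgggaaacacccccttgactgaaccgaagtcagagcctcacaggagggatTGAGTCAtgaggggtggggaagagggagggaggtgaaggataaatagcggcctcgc
The AP-1 letters began 116 bases before the start in Ivl, 81 in Krtdap, 89 in Dmkn and 6 in Sbsn, and TATAAA began 29 bases before it in Ivl, 26 in Krt10 and 30 in Krtdap. Over the members' windows, 11 of 28 (39.3%, from 9 genes) held the AP-1 letters, beside 5.20% of all 32851 promoter windows, and 13 of 28 (46.4%, from 12 genes) held TATAAA, beside 13.6%. The grainyhead letters were in 0 of the 28 windows and in 0.146% of all. The window of Csta1, the remaining gene of the 6, held none of the letters. Sbsn, Dmkn and Krtdap are neighbors on chromosome 7 with no other protein-coding gene between them in GENCODE M21 (GRCm38), from 30751471 at the start of Sbsn to 30791097 at the end of Krtdap, all on the plus strand. On chromosome 3, 8 members, all envelope precursors, lie between 92080271 and 93293686, within 1213 kb.

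The suprabasal pair Krt1 and Krt10 was high in G164 and at 3.69 CPM or less in every other tumor. Krt1, which pairs with Krt10 in the spinous layer, was at 0.0762 and 1.54 CPM in G144 tumors 6 and 8, 67.3 and 22.3 in G164 tumors 3 and 6, 0.155 and 1.07 in G184 tumors 6 and 9, and 0.0305 and 0.0602 in G174 tumors 1 and 6. Krt10 was at 2.67 and 3.69 CPM in G144, 66.6 and 17.5 in G164, 1.89 and 2.56 in G184 and 2.16 and 2.53 in G174. For both keratins the 2 G164 tumors lay above all others, tumor 3 above tumor 6, and for Krt10 G144 came next, above the overlapping tumors of G184 and G174. Against G144, Krt10 was higher in G164 by a log2 fold change of 3.73 ± 0.61 (SE), with an edgeR adjusted p of 0.031, and Krt1 by 5.82 ± 1.31 with an adjusted p of 0.0567, which did not pass. Krt10 lost the call when either G144 tumor was left out, with adjusted p up to 0.209, and its log2 value was 2.45 without G164 tumor 3. It overlaps an antisense gene (Gm11940), and with both strands counted the value was 3.02 in the fit and 2.88 as the ratio of sums per mouse.

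Krt4, a keratin of mucosal stratified epithelia, showed a different order. It was at 1.97 and 1.78 CPM in G144, 6.04 and 6.98 in G164, 3.06 and 6.17 in G184 and 0.305 and 0.693 in G174. The 2 G174 tumors were the lowest of all 8, G164 was above G144, and G184 tumor 9 reached the level of G164. In G174 against G184 Krt4 fell by 3.20 ± 0.48 on the log2 scale (edgeR adjusted p = 0.0105), and the call held without each tumor in turn (highest adjusted p 0.0449), but not with only these 2 mice in the fit (0.0516). Its usual partner Krt13 had 14 counts in all 8 tumors and Krt2, of the upper epidermis, had 18, of which G164 held 17. Krt15, a keratin of basal cells, was at 3.86 and 1.86 CPM in G144, 5.26 and 13.9 in G164, 1.00 and 8.07 in G184 and 13.1 and 5.48 in G174, and Krt80 at 3.22 and 3.17, 3.24 and 8.84, 4.18 and 10.5, and 3.67 and 5.32. Neither passed any of the tests. The tumors of Krt15 overlapped between mice, and those of Krt80 were lowest in G144, by a margin of 3.22 to 3.24 CPM.

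The keratins of wounded and overgrowing epidermis, Krt6a, Krt6b and their partner Krt16, were highest in tumor 6 of G164. Krt16 was at 0.122 and 0.108 CPM in G144, 1.26 and 25.9 in G164, 0.113 and 2.81 in G184 and 0.183 and 0.346 in G174. Krt6a was at 0.640 and 1.95 CPM in G144, 4.73 and 20.5 in G164, 1.95 and 6.59 in G184 and 0.259 and 1.16 in G174. Krt6b was at 0 and 0.0179 CPM in G144, 2.13 and 11.2 in G164, 0.0141 and 0.777 in G184 and 0 and 0.0151 in G174. In all 3, G184 tumor 9 was the highest tumor outside G164, and for Krt16 and Krt6a it was above G164 tumor 3. None was called in G164 against G144 (edgeR adjusted p = 0.0517 for Krt6b, 0.0924 for Krt16 and 0.118 for Krt6a). Since G144 held 1 count of Krt6b against 807 in G164, the ratio was 853 with a 95% counting interval from 153 to 33750. Krt6a and Krt6b share 45.7% and 50.1% of their 50-base stretches with transcripts of other genes, mostly each other, and Krt16 37.6%, so their counts, which leave out reads that map to several places, are uncertain.

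The 2 tumors of G164 differed from each other, each against a single tumor and so with no replicate check. Krt1, Krt10, Lor and Flg were at 2 or more times the level of tumor 6 in tumor 3, from 2.53 times for Flg to 7.54 times for Lor. In the other direction, 12 members were at 2 or more times the level of tumor 3 in tumor 6, among them Krt16 (20.6 times), Cnfn (6.25 times), Krt6b (5.22 times) and Krt6a (4.34 times). Over all genes tested, 4.07% reached that ratio in favor of tumor 3 and 3.32% in favor of tumor 6. In G184, 15 of the 31 tested members were at 2 or more times in tumor 9 the level of tumor 6 (4.06% of all genes), and 2, Sprr1a and Serpinb2, the reverse (5.19%). In G144 the same held for 9 members in tumor 8 over tumor 6 (5.21%) and 1 the reverse (3.30%). In G174 it held for 6 in tumor 6 over tumor 1 (7.18%) and 2 the reverse (4.17%).

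**Figure D3:**
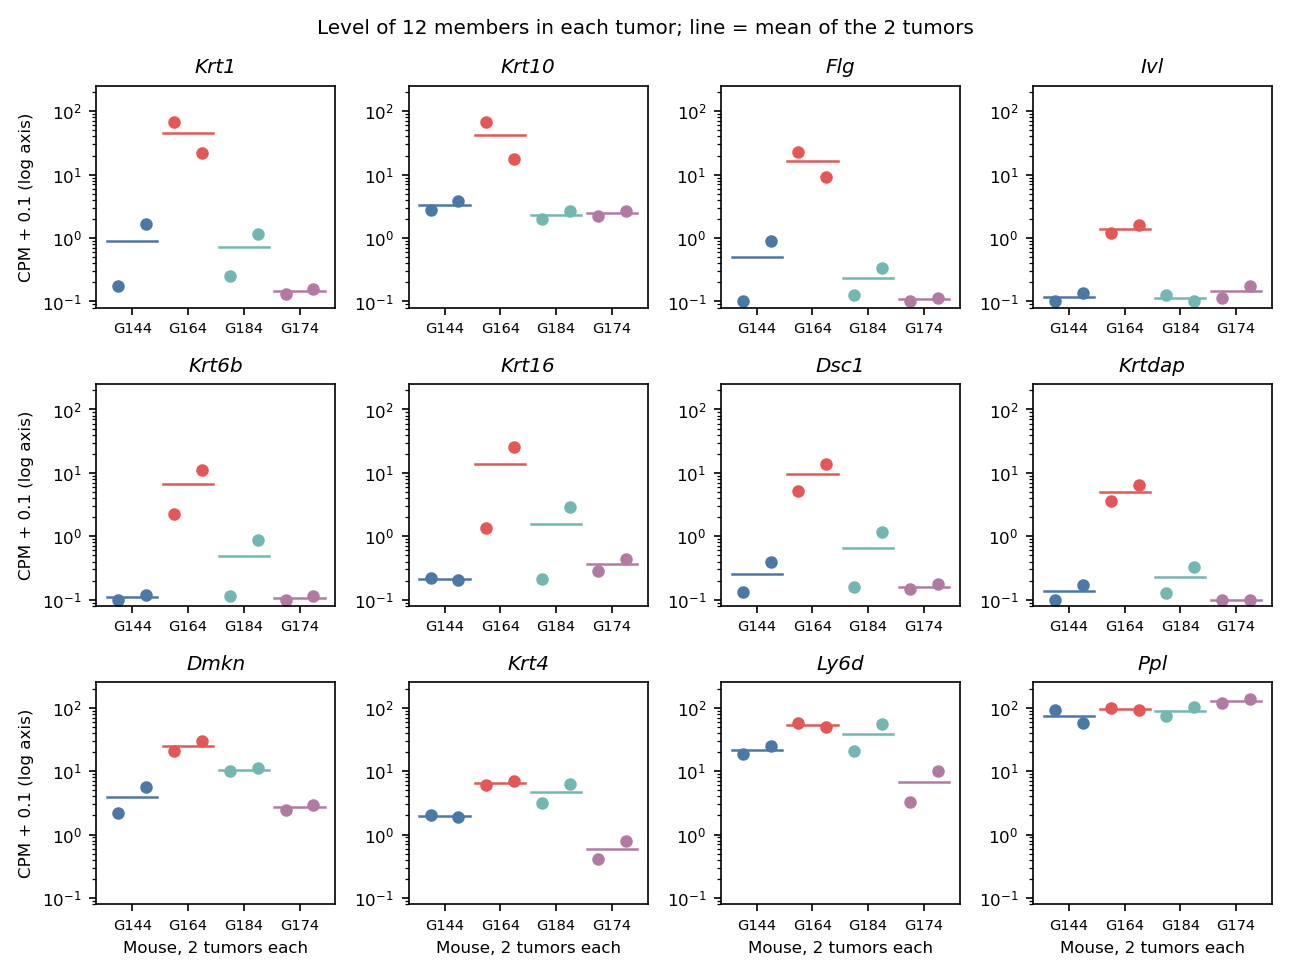
Points are the 8 tumors, colored by mouse (G144, G164, G184 and G174 from left to right), lines the means of the 2 tumors, and the log axis gives CPM + 0.1. The G164 points lie above the others for Krt1, Krt10, Flg, Ivl, Krt6b, Dsc1, Krtdap and Dmkn, the G174 points are lowest for Krt4 and Ly6d, and Ppl is near 100 CPM in every tumor.

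Among the cornified envelope precursors, Ivl, Flg and Lor were highest in G164, and the plakins were found in every tumor. Ivl, involucrin, an early scaffold of the envelope, was at 0 and 0.0359 CPM in G144, 1.11 and 1.49 in G164, 0.0282 and 0 in G184 and 0.0152 and 0.0753 in G174. Flg, the filaggrin precursor that bundles keratin filaments, was at 0 and 0.789 CPM in G144, 23.1 and 9.11 in G164, 0.0282 and 0.233 in G184 and 0 and 0.0151 in G174. Lor, loricrin, the main protein of the mature envelope, was at 0.0914 and 0.179 CPM in G144, 3.51 and 0.465 in G164, 0.0564 and 0.0777 in G184 and 0.198 and 0.166 in G174. For each of the 3, both G164 tumors lay above the other 6. Against G144, Ivl was higher in G164 (edgeR adjusted p = 0.0288): the counts were 151 against 2, a ratio of 79.8 with a 95% counting interval from 21.7 to 665. The call was lost without any 1 of the 4 tumors of these mice (adjusted p up to 0.194). Ivl reached the filter's level only in G164, so the call is a description. The log2 differences of Lor, 3.87 ± 0.95, and Flg, 5.38 ± 1.38, did not pass (edgeR adjusted p = 0.0682 and 0.0753), although both differed in the test among all 4 mice (0.0353 and 0.0215).

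The small proline-rich proteins, which bridge other precursors in the envelope, were low. Sprr2d had 28 counts in G164, at 0.286 and 0.209 CPM, 1 in G184 tumor 9 (0.0155 CPM) and none in the other 5 tumors. That put it at least 9.87-fold higher in G164 than in G144, taking 3 counts over the 2 tumors as the limit that a count of 0 allows, and it differed among the mice (edgeR adjusted p = 0.0359). Sprr1b, which was not tested, had 40 counts, all in G164, at least 14.1-fold above G144 by the same limit. Sprr1a ranged from 0.945 to 2.79 CPM outside G164 and was at 3.95 and 8.18 in it, with no test passed (adjusted p = 0.0900 against G144). Sprr2h had 8 counts in all, and Sprr3 had 0, which allows up to 3. Cnfn, cornifelin, was at 0.133 and 0.834 CPM in G164 and 0.218 in G184 tumor 9, with 0 counts in G144 and 2 in G174, at least 20.8-fold higher in G164 than in G144 on counts, and passed no test (adjusted p = 0.122). Csta1, a cystatin protease inhibitor, was at 0.122 and 0.108 CPM in G144, 0.781 and 0.786 in G164, 0.0141 and 0.0311 in G184 and 0.0914 and 0.120 in G174. It was higher in G164 than in G144 by 2.75 ± 0.37 (edgeR adjusted p = 0.0238, lost without any 1 of the 4 tumors of these mice, at most 0.182). Csta1 had 121 counts in the 8 tumors, with 50.4% of the reads at its exons from the other strand, and with both strands counted and summed per mouse the log2 difference was 1.45. Sprr2d and Csta1 reached the filter's level only in G164, so their calls are a description.

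Evpl and Ppl, envoplakin and periplakin, anchor the envelope to desmosomes and keratin, and are found in many epithelia. Ppl was at 92.6 and 56.5 CPM in G144, 98.8 and 90.3 in G164, 73.8 and 101 in G184 and 118 and 136 in G174, and Evpl at 46.4 and 34.4, 47.6 and 48.5, 34.6 and 49.6, and 55.3 and 54.9. For both, the 2 G174 tumors were the highest of the 8, and no test passed. The log2 difference of Ppl was 0.34 ± 0.25 in G164 against G144 and 0.54 ± 0.25 in G174 against G184.

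Of the cross-linking enzymes, Tgm1, the membrane-bound transglutaminase, was found everywhere, and Tgm3 at low level. Tgm1 was at 11.3 and 13.5 CPM in G144, 13.7 and 25.7 in G164, 15.2 and 29.4 in G184 and 7.28 and 12.8 in G174, and passed no test. Tgm3, a cytosolic form of late keratinocytes and hair, was at 0.0609 and 0.0896 CPM in G144, 0.515 and 1.32 in G164, 0.113 and 0.373 in G184 and 0.0762 and 0.0301 in G174. Both G164 tumors were above the others, and the edgeR adjusted p was 0.0533 against G144 and 0.0358 among the 4 mice. Tgm3 reached the filter's level in fewer than 2 tumors outside G164, so its call is a description.

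The desmosomal cadherins of the upper epidermis followed the G164 tumors. Dsc1 was at 0.0305 and 0.287 CPM in G144, 5.16 and 14.0 in G164, 0.0564 and 1.07 in G184 and 0.0457 and 0.0753 in G174. Dsg1a was at 0.183 and 1.36 CPM in G144, 4.61 and 7.99 in G164, 0.0141 and 0.420 in G184 and 0 in both G174 tumors. For both genes the G164 tumors lay above all others. Both differed among the 4 mice (edgeR adjusted p = 0.0296 for Dsc1 and 0.0477 for Dsg1a), with no call in G164 against G144 (0.0588 and 0.180). Dsg1a shares 35.0% of its 50-base stretches with other genes, Dsg1b first.

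The 3 neighbors on chromosome 7 that encode secreted proteins of the differentiating epidermis were all higher in G164 than in G144. Dmkn, dermokine, was at 2.09 and 5.54 CPM in G144, 20.5 and 29.4 in G164, 9.89 and 10.9 in G184 and 2.38 and 2.79 in G174. Sbsn, suprabasin, was at 4.57 and 6.42 CPM in G144, 10.7 and 15.8 in G164, 7.07 and 7.63 in G184 and 5.47 and 4.88 in G174. Krtdap was at 0 and 0.0717 CPM in G144, 3.51 and 6.30 in G164, 0.0282 and 0.233 in G184 and 0 in both G174 tumors. In all 3, G164 was highest with no overlap and G184 came next in both tumors except for Krtdap, whose G184 and G144 tumors overlapped. The log2 differences against G144 were 2.71 ± 0.44 for Dmkn (edgeR adjusted p = 0.0309), 1.27 ± 0.25 for Sbsn (0.0441) and 7.11 ± 1.15 for Krtdap (0.0362). The call of Dmkn was lost without G144 tumor 6 or either G164 tumor (adjusted p at most 0.144), that of Krtdap without any 1 of the 4 tumors (0.205), and that of Sbsn without any 1 of the 8 tumors (0.0512 to 0.229). Krtdap reached the filter's level in fewer than 2 tumors outside G164, so its call is a description. Dmkn fell by 2.01 ± 0.43 in G174 against G184 (adjusted p = 0.0289, lost without any 1 of the 4 tumors of these mice, at most 0.122), and Krtdap was at least 5.53-fold lower there on counts, with no call (0.131).

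Ly6d, a surface protein of keratinocytes and other epithelia, and 2 cytosolic members were abundant. Ly6d was at 18.4 and 25.1 CPM in G144, 56.6 and 49.8 in G164, 20.8 and 55.9 in G184 and 3.18 and 10.1 in G174. The 2 G174 tumors were the lowest, and G184 tumor 9 was at the level of G164. In G174 against G184 it fell by 2.53 ± 0.62 (edgeR adjusted p = 0.0414), and the call held only without either of 2 tumors, G184 tumor 6 or G174 tumor 6 (highest adjusted p 0.188, with a log2 value of -1.64 without G184 tumor 9), and not with only these 2 mice in the fit (0.111). Calml3, a calmodulin-like protein of epithelial cells, was at 63.5 and 57.0 CPM in G144, 49.4 and 48.0 in G164, 32.7 and 21.9 in G184 and 37.1 and 41.9 in G174. It was highest in G144 and lowest in G184, with a log2 difference of -1.14 ± 0.19 in G184 against G144 (edgeR adjusted p = 0.0147). Sfn, the 14-3-3 sigma protein, was at 30.9 and 38.0, 31.6 and 49.8, 32.0 and 59.3, and 18.8 and 32.3 CPM in G144, G164, G184 and G174, and passed no test. Per kilobase of exon, the highest mean levels in G164 were 71.5 CPM for Ly6d, 34.3 for Calml3, 25.2 for Sfn and 19.9 for Krt10.

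The kallikreins, serine proteases that act in the shedding of the horny layer, were at their highest in G164 tumor 6. Klk10 was at 0.0305 and 1.27 CPM in G144, 6.06 and 16.4 in G164, 1.59 and 2.01 in G184 and 0.0914 and 0.181 in G174. Klk8 was at 0.640 and 0.645 CPM in G144, 1.37 and 3.21 in G164, 0.931 and 2.16 in G184 and 0.549 and 0.843 in G174. Klk10 was above all other tumors in G164, while for Klk8 G184 tumor 9 lay between the G164 tumors. Klk10 differed among the mice (edgeR adjusted p = 0.0472), and neither was called against G144 (0.0930 and 0.102). Both overlap a transcript on the other strand (2310002F09Rik). Serpinb2, an inhibitor of plasminogen activators, was at 0.362 and 0.321 CPM in G164 and 0.0152 to 0.198 in the other tumors, and passed no test. Grhl3, a transcription factor of the epidermal barrier, was between 1.68 and 3.59 CPM with overlap of all mice. Grhl3 had a log2 difference of 0.19 ± 0.38 in G164 against G144.

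Counted by comparison, 6 of the 31 tested members were called higher in G164 than in G144 (Ivl, Csta1, Krt10, Krtdap, Dmkn and Sbsn), against 2.72% of all genes tested, and 0 lower, against 1.29%. No member was lower at an unadjusted p under 0.05 or in DESeq2 either, while 22 were higher at an unadjusted p under 0.05. The median log2 difference was 2.97 over the 31 (also with the 2 members that G144 held at 0 put at their bound), beside 0.02 over all genes, with 30 of 31 above 0. Over the 23 members that reached the filter's level in 2 or more tumors outside G164, 3 were called higher and the median was 1.83. The number of members called was 0 without G144 tumor 6, 1 without G144 tumor 8, 1 without G164 tumor 3 and 2 without G164 tumor 6. Calls over all genes fell likewise, from 890 to 16, 20, 118 and 37.

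In G174 against G184, 3 members were called lower (Dmkn, Ly6d and Krt4), against 7.70% of all genes, and 1 higher (Csta1), against 5.44%. Csta1 differed by 2.16 ± 0.54 (edgeR adjusted p = 0.0434) on 14 counts against 3, a ratio of 4.78 with a 95% counting interval from 1.33 to 25.9, and lost the call without any 1 of the 8 tumors. The median over the 31 was -1.15 (also with the 2 members that only G174 held at 0, Dsg1a and Krtdap, put at their bound), beside -0.0012 over all genes, with 21 below 0. Both G174 tumors lay below the other 6 for 4 members (Krt1, Krt4, Dsg1a and Ly6d), against 9.28% of all genes. The number of members called was 1 without G184 tumor 9, 1 without G174 tumor 1 and 2 without G164 tumor 3, G164 tumor 6 or G174 tumor 6, where calls over all genes fell from 2917 to 532, 1429, 1749, 1731 and 1976.

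The change between the 2 mice of the fl/fl pair was also set against that of the fl/wt pair. In this difference of changes, 15 of the 31 members were called lower, against 13.1% of all genes, and 0 higher, against 12.0%, with 1 higher at an unadjusted p under 0.05 and 1 in DESeq2. Krt6b, Krtdap and Tgm3, among the 15, were also among the 8 members that passed the filter largely through G164. Among the 23 members that reached the filter's level in 2 or more tumors outside G164, 12 were called lower. In the test of any difference among the 4 mice, 11 of these 23 were called. The values with the lowest adjusted p were -5.00 ± 0.65 for Krt4 and -4.72 ± 0.61 for Dmkn (edgeR adjusted p = 0.00384 and 0.00394), and these held without each tumor in turn (highest 0.0240 and 0.0178). With the sign turned, the same quantity is the level in the 2 older mice, G164 and G184, less that in the 2 younger, G144 and G174, and these readings cannot be told apart. Markers of some other cell types were lower in it as well, 12 of 12 for T cells, 9 of 11 for macrophages, 7 of 8 for adipocytes and 5 of 10 for neutrophils. Of other lists, 3 of 14 basal and 3 of 11 hair follicle markers were lower. Luminal markers went both ways, 3 of 18 lower and 3 higher, and 0 of 6 sebaceous and 0 of 10 skeletal muscle markers were called. The part of these markers in the members' values was not tested. The number of members called was 6 without G144 tumor 6, 7 without G164 tumor 6, 3 without G184 tumor 9 and 7 without G174 tumor 1, where calls over all genes fell from 5579 to 2456, 2079, 2637 and 4674. The 2 Cre- mice differed in 2 members, Csta1 and Calml3, both lower in G184, against 6.40% of all genes, and in 0 higher, against 6.17% (2 higher at an unadjusted p under 0.05 and 2 in DESeq2). For Csta1 the ratio of counts, G144 over G184, was 5.20 (1.45 to 28.2). The call of Csta1 held in 2 of 8 fits without a tumor, and that of Calml3 was lost without G144 tumor 6 or G184 tumor 9 (at most 0.0973). In the test of any difference among the 4 mice, 17 of the 31 differed, against 11.4% of all genes, and 4 without G164 tumor 6, where calls over all genes fell from 2533 to 820.

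**Figure D4:**
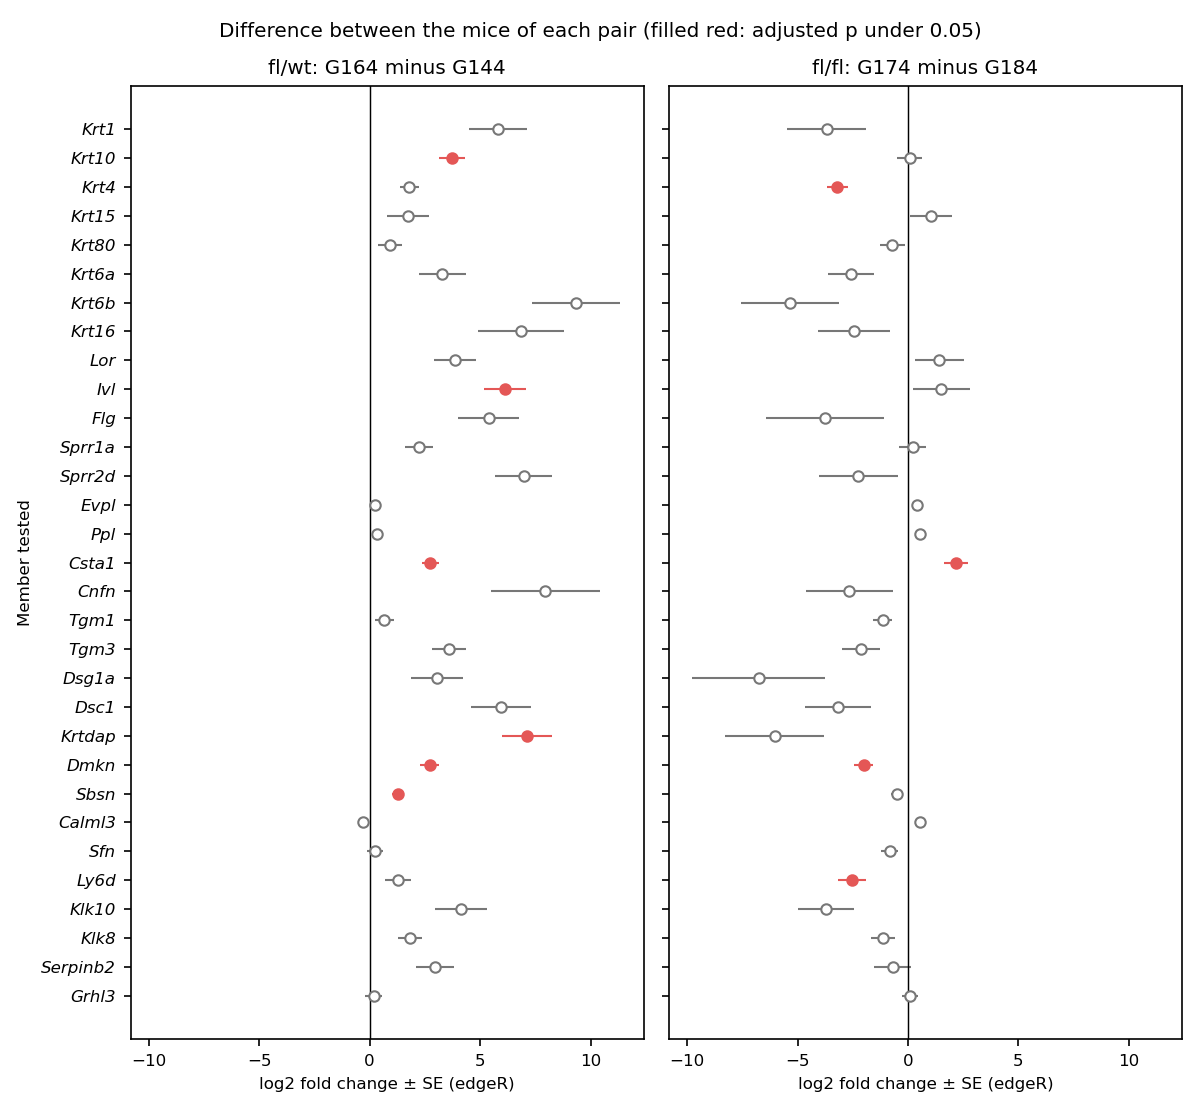
Points are log2 fold changes with their SE for the 31 tested members in G164 against G144 (left) and G174 against G184 (right), filled red where the edgeR adjusted p was under 0.05. Most points lie right of 0 on the left and left of 0 on the right, where Csta1 is the red point above 0, and the values of Sprr2d, Cnfn, Krtdap and Dsg1a rest in at least 1 panel on a mouse with 0 counts and are no bounds.

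A second list held 68 other keratinocyte genes that were not among the 36, mostly envelope and late genes, but also the basal keratins Krt5, Krt14 and Krt17, which stand in the basal list too, and junction genes such as Jup and Dsp. Of the 48 tested, 6 were higher in G164 than in G144 (12.5%, beside the 2.72% of all genes) and 0 lower. For 25, both G164 tumors lay above the other 6, beside 5.26% of all genes tested. Some of the 48, such as Lce1b and Lce1g, had 0 counts outside G164 and passed the filter only through it. Such genes had to differ, so the counts over the 48 are a description. Rptn, repetin, an envelope precursor, was at 0.0914 and 0.0896 CPM in G144, 8.50 and 46.5 in G164, 0.127 and 3.51 in G184 and 0.0305 and 0.0151 in G174. Hrnr, hornerin, related to filaggrin, was at 0 and 0.108 CPM in G144, 10.9 and 11.5 in G164, 0 and 0.249 in G184 and 0 in G174. The G164 tumors were above all others for both. The log2 differences were 8.22 ± 1.72 for Rptn (edgeR adjusted p = 0.0497), 7.74 ± 1.36 for Hrnr (0.0414), 4.69 ± 0.96 for the protease Klk5 (0.0471) and 4.52 ± 0.76 for the caspase Casp14 (0.0390). Klk5 and Casp14 reached the filter's level only in G164, and Rptn and Hrnr outside G164 only in G184 tumor 9. These calls are therefore a description. In G174 against G184, 3 of the 48 were lower (Pou2f3, Klk11 and Spink5; 6.25%, beside 7.70%) and 1 higher (Dsc2), and in the difference of changes 16 were lower (33.3%, beside 13.1%) and 1 higher. Of 25 tested transcription factors of keratinocytes, 1 was higher in G164 (Maf, by 1.21 ± 0.25, edgeR adjusted p = 0.0497), and 2 were lower in G174 (Prdm1 and Fosl2), shares of 4.0% and 8.0% that were near those of all genes, 2.72% and 7.70%. In the difference of changes 8 of the 25 were lower (32%, beside 13.1%) and 1 higher (4.0%, beside 12.0%). Trp63, the p63 factor of stratified epithelia, was at 23.4 and 19.7 CPM in G144, 28.7 and 45.5 in G164, 29.3 and 75.1 in G184 and 14.4 and 22.2 in G174, highest in the tumor of G184 that carried part of the program.

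Markers of other cell types moved with some of these tumors. Of 23 hair follicle and nail genes found, the summed level was 301 CPM in G164 tumor 6 and 29.8 in G184 tumor 9, beside 3.40 to 8.39 in the other 6 tumors, G164 tumor 3 among them at 8.14. Trichohyalin (Tchh) made up most of it, at 217 CPM in G164 tumor 6 and 19.5 in G184 tumor 9, with Krt73 at 29.6 and 1.59. Of the 11 of these tested, 10 had their highest level in G164 tumor 6, beside 8.69% of all genes tested. In G164 against G144, 0 were called (5 by DESeq2). Of the 12 members at 2 or more times in tumor 6 the level of tumor 3, most were high where these markers were. Krt16, Krt6a, Krt80, Klk8 and Cnfn had their 2 highest levels in G164 tumor 6 and G184 tumor 9, Krt16 at 25.9 and 2.81 CPM. Krt6b, Tgm3, Dsc1 and Klk10 were highest in G164 tumor 6, and outside G164 were highest in G184 tumor 9. Sprr1a, Krt15 and Grhl3 did not follow these markers. Sprr1a was at 0.979 CPM in G184 tumor 9 beside 2.60 in G184 tumor 6. Krt15 was at 13.1 CPM in G174 tumor 1, where the hair follicle and nail genes summed to 3.40. Krt1, Krt10, Flg and Lor, which are not among the 12, were higher in G164 tumor 3. The part of these markers in the members' levels was not tested. The summed level of 14 basal and myoepithelial genes was 1327 and 1125 CPM in G164 and 1344 in G184 tumor 9, beside 246 to 714 in the other 5 tumors, with Krt5 at 53.9, 83.6 and 80.1 against 4.45 to 22.4 CPM. Skeletal muscle genes summed to 279 CPM in G144 tumor 8 and 345 in G164 tumor 3, and to 1.94 to 4.02 in the others. T cell markers, 12 of 12 of them, were lower in G174 than in G184, and 6 were higher in G164 than in G144. Macrophage markers numbered 7 of 11 lower in G174 and 1 higher in G164, neutrophil markers 2 of 10 and 2, and adipocyte markers 2 of 8 and 2. Beside these lists and those that follow, 7.70% of all genes tested were lower and 5.44% higher in G174 than in G184. In G164 against G144, 2.72% of all genes were higher and 1.29% lower. Sebaceous genes (9 found) summed to 682 to 1084 CPM with 0 called in G164 against G144 and 1 higher in G174, and 7 melanocyte genes to 0.602 to 0.898 CPM. Fasn, Plin2 and Soat1 made up most of the sebaceous sum, while Awat1, Elovl3 and Dgat2l6 had 2, 12 and 12 counts over all tumors. Luminal markers, those of the labelled tissue, summed to 5642 to 7627 CPM, with 1 of 18 lower in G164, and 3 higher and 2 lower in G174. The part of these cell types in the members' levels was not tested.

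**Figure D5:**
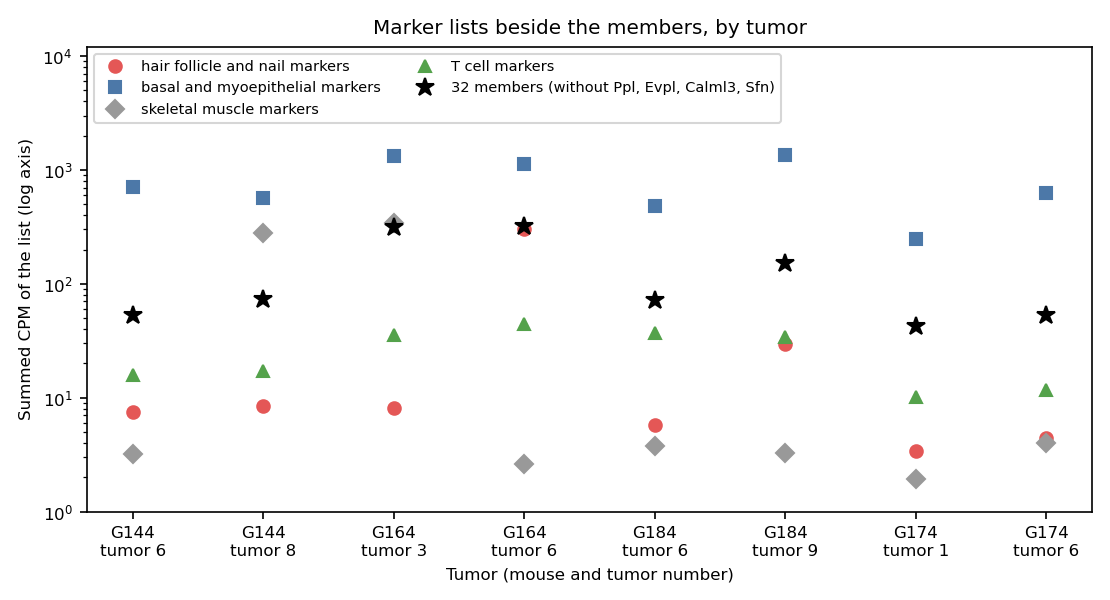
Points give, on a log axis, the summed CPM of 4 marker lists and of 32 members (all but Ppl, Evpl, Calml3 and Sfn, the abundant ones left out after their values were seen) in each tumor. The members' sum was 314 and 323 CPM in G164 and 153 in G184 tumor 9, beside 43.0 to 74.0 in the other 5 tumors, and the hair follicle list was at 301 in G164 tumor 6 and 29.8 in G184 tumor 9, above the other 6 tumors.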

How the data were processed

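RNA of 8 tumors was made into stranded libraries after ribosomal RNA removal, each sequenced in 2 runs of 4 lanes. Per the labels and methods, the authors aligned reads with STAR to GRCm38/mm10 (versions not given in the sources used here) and deposited raw counts per gene, 1 file per lane and 64 in all, without reads that map to several places. Reverse-strand counts were summed to 1 library per tumor (50346075 to 69264893 counts). edgeR 4.0.16 (filterByExpr at 10 counts, TMM, quasi-likelihood test, Benjamini-Hochberg adjustment over 22187 genes at 0.05) was fitted to the 4 mice, with the 2 tumors of a mouse as replicates. In data simulated for G164 against G144 (21679 genes), 83 of 100 genes changed 4-fold and 33 of 100 changed 2-fold were called. The changed genes all had a mean above 1 CPM, so these shares do not cover the members below that level. DESeq2 1.42.0 and other settings were alternatives. Counting intervals (Clopper-Pearson) and limits cover counting error only. The 36 members and the lists were chosen with earlier results of these data known. Values per tumor were given for members with an adjusted p under 0.05 in any of 5 tests or a mean of at least 5 CPM, and for up to 4 called genes of a list by size of change. Promoter windows are from RefSeq (GRCm38.p6) and gene positions from GENCODE M21.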

Additional observations from a re-analysis of the deposited data

Results flagged for a closer look

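For 15 members the change between the fl/fl mice (G174 against G184) differed from that between the fl/wt mice (G164 against G144) by a test of that difference, and in all 15 the fl/fl change lay below the fl/wt change. That is no fall within the fl/fl pair, where 3 of the 15 were called lower and Krt10 differed by 0.08. Of the 15, Krt6b, Krtdap and Tgm3 reached the filter's level in fewer than 2 tumors outside G164, so their calls are a description. For the keratins the difference of log2 changes was -9.50 for Krt1, -3.65 for Krt10, -5.00 for Krt4, -5.87 for Krt6a, -14.70 for Krt6b and -9.31 for Krt16. For the other members it was -9.15 for Flg, -5.73 for Tgm3, -9.11 for Dsc1, -13.15 for Krtdap, -4.72 for Dmkn, -1.77 for Sbsn, -3.82 for Ly6d, -7.84 for Klk10 and -2.98 for Klk8. The edgeR adjusted p ranged from 0.00384 for Krt4 to 0.0495 for Flg. The sizes for Krtdap, with 0 counts in G174, and for Krt6b and Flg, with 1 count in a mouse, depend on the count that edgeR adds to low values and are no bounds. The calls of 2 of the 15, Krt4 and Dmkn, held without each of the 8 tumors in turn.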

How the results depend on the processing

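Without the filter on low counts more members were called: 24 in G164 against G144, 14 in G174 against G184, 23 in the difference of changes, 7 in G184 against G144 and 28 among the 4 mice, while calls over all genes rose from 890 to 2614, 2917 to 4575, 5579 to 6537, 2787 to 4158 and 2533 to 5946. DESeq2 called 16 in G164 against G144, and 2817 of all genes. With only the 2 mice compared in the fit, the calls were 11 in G164 against G144, 2 in G174 against G184 and 1 in G184 against G144, where unstranded counts and run 190617 alone also gave 1. The causes were not tested. Leaving out 1 tumor at a time gave 0 to 7 calls in G164 against G144, 1 to 3 in G174 against G184, 3 to 18 in the difference, 0 to 3 between the Cre- mice and 4 to 13 among the 4 mice. Of the 27 calls in the 4 comparisons, 3 held without each tumor in turn and 20 under all other settings that gave a value. Of 426 repeats of single values, 0 turned in sign and 116 lost the call. Both G164 tumors lay above the other 6 for 17 or 18 of the 31 members under each setting tried, which were chosen after the data were seen. No paired analysis was possible because the mice share at most 1 tumor number.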
